A study of Mus musculus with 56 samples.

Results

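Monocytes and macrophages from mouse skull defects were compared 10 days after injury between mice whose regulatory T cells (Tregs) had been depleted and mice that kept them. The comparison took the 3 libraries titled Treg-depleted at bone day 10 against the 3 titled control at that day, 6 of the 56 libraries of the series, and covered all 12709 genes expressed well enough for a test. Depleted cells came from Foxp3(DTR/GFP) mice, written FDG in the labels, in which the Foxp3 locus carries the diphtheria toxin receptor and a green fluorescent protein. Control cells came from wild-type C57BL/6J mice. All mice were 10 weeks old, had 1 injury each (here a hole in the cranial bone) and received 20 ng/g diphtheria toxin into the peritoneum from 2 days before injury, so the controls carry the toxin but not its receptor. Toxin was given at an interval of 2 days for 1 week after injury, so day 10 lay after the last dose. Genotype and depletion cannot be told apart in this design. The labels give bone days 7 and 10, whereas the series text names days 4 and 7. Whether each library of a group holds a different animal is not stated, so every p-value measures how far these libraries spread, a spread that may be technical.

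Tregs are T cells that express the transcription factor FOXP3 and restrain other immune cells, and in wounds they also act on repair. Monocytes enter an injury from the blood, carry the surface antigen Ly6C, and can mature into macrophages that clear dead cells and debris through lysosomes, handle lipid and iron from what they engulf, and present antigen. In bone the same lineage also forms osteoclasts, the cells that resorb mineral. The comparison asks how these cells differ when Tregs have been removed.

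Values are CPM, counts scaled by TMM to a common library size, given in the order control 1, 2 and 3 and depleted 1, 2 and 3. A gene was called, and is said to have risen or fallen in depleted cells, where edgeR's quasi-likelihood test gave an adjusted p (Benjamini-Hochberg) under 0.05. SE is the standard error of the log2 change (depleted minus control), and n = 3 libraries per group at day 10 and 5 at day 7. In the reported fit the spread was estimated over all 16 bone libraries of both days. A dagger (†) marks a gene that shares sequence with another gene, so that its counts are uncertain. Total counts were 2369157 to 3602375 in the control and 2817430 to 3075084 in the depleted libraries.

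Foxp3 itself (Foxp3†, ENSMUSG00000039521, GRCm38 chromosome X, 7573644 to 7595245) had 3 counts in each group of 3 libraries, at 0, 0.396 and 0.814 CPM in the controls and 0.361, 0.355 and 0.332 CPM in the depleted libraries. It was too low for a test. The sorted cells are not T cells, so this level is no check of the depletion. Ctla4, with 3 and 0 counts in control and depleted libraries, and Il2ra, with 19 and 11, were not tested either. Of 16 Treg markers 8 were tested. Of these, 2 fell (25%, beside 8.22% of all genes) and 0 rose. Those that fell were Il10, given with the cytokines, and Capg, an actin-capping protein that macrophages also make. The list summed to 1133, 1412 and 1441 CPM in the controls and 593.3, 674.1 and 547.1 CPM in the depleted libraries. These sums did not overlap (two-sided exact permutation p = 0.1, as low as 3 against 3 can go). Most of that sum was Capg, at 1069, 1347 and 1384 against 535, 624 and 497 CPM (log2 -1.20 ± 0.19 SE, adjusted p = 0.000317). Whether the macrophages or another cell type held this Capg was not tested.

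The labelled cell type was checked against 20 macrophage core markers, all of which were detected. Summed over the list they held 25740, 26300 and 25930 CPM in the controls and 17190, 19010 and 15310 CPM in the depleted libraries. The control libraries lay within a narrow range and all depleted libraries lay below it. Neutrophil granule and receptor genes were present in every library and higher in the depleted ones, at 9092, 7582 and 5191 against 33870, 18370 and 20280 CPM. Rn18s-rs5, a ribosomal RNA that oligo-dT primers are not meant to capture, was at 16560, 25110 and 19900 against 105300, 67050 and 94890 CPM. Neither of these levels overlapped between the groups (exact permutation p = 0.1 for each of the 3 sums, two-sided, the smallest that 3 against 3 allows). Both levels moved with the groups, and beyond the fits with each as a covariate their part in the results was not tested. In bulk libraries fewer cells of a type and less RNA per cell cannot be told apart.

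**Figure D1:**
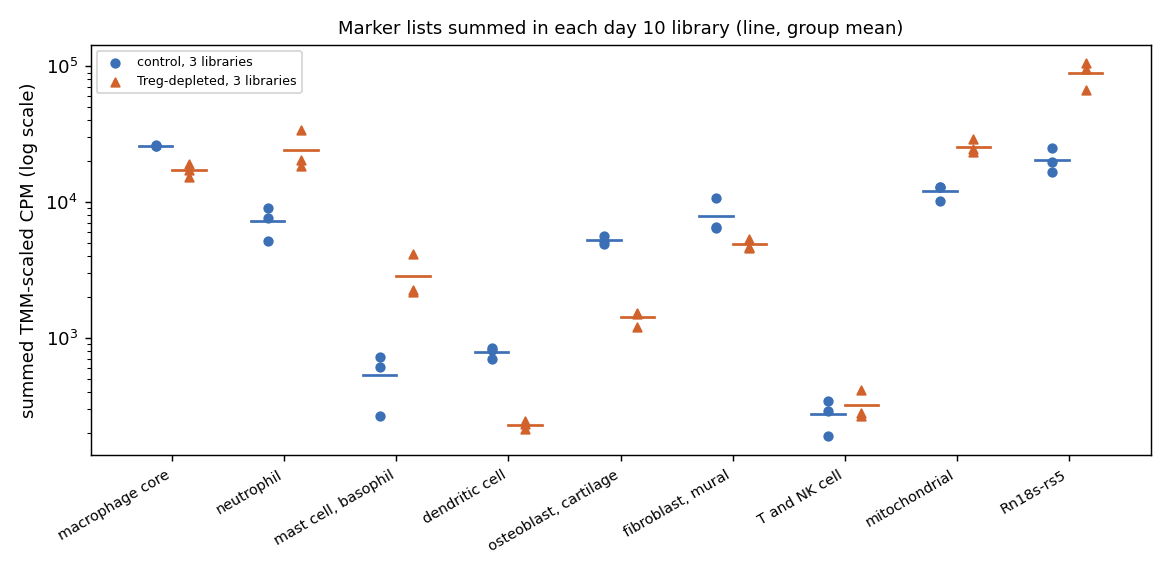
Summed levels of marker lists, of mitochondrially encoded transcripts and of Rn18s-rs5 in each day 10 library (y axis, TMM-scaled CPM on a log scale; blue circles, 3 controls; orange triangles, 3 Treg-depleted; line, group mean). Macrophage core, dendritic cell and osteoblast genes lay lower in all depleted libraries and neutrophil, basophil and mitochondrial genes higher, while T and NK cell markers overlapped. Most of the osteoblast sum is Spp1†, which also stands in the list of lipid-associated macrophages.

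In all, 2182 of 12709 genes differed between depleted and control cells at day 10 (17.2%), 1137 of them higher (8.95%) and 1045 lower (8.22%). Of the called genes, 639 were at least 2-fold higher and 487 at least 2-fold lower, and the median log2 change over all genes tested was -0.0047. The 3 and 3 libraries did not overlap in 2114 of the called genes and in 4490 of all genes tested (35.3%). The calls of 799 genes, 452 higher and 347 lower, were kept whichever of the 6 day 10 libraries was left out. The total was 1430 without control 2, 1279 without control 3, 1181 without depleted 1 and 1244 without depleted 3. With the level of Rn18s-rs5 as a covariate 78 genes were called, and with the neutrophil level 189. 99.9% and 98.2% of the called genes kept their sign in those fits. The median size of their log2 changes went from 1.02 to 0.916 and 0.796, and their median SE from 0.252 to 0.376 and 0.356.

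35 genes were called in the same direction in all 3 of these fits, and 10 of them are among the genes that the naming rule selects. Those that fell were Cd209a, a lectin of monocyte-derived dendritic cells and macrophages, Cx3cr1, the fractalkine receptor, Cd68, a glycoprotein of macrophage lysosomes, Cd83, a surface protein of activated antigen-presenting cells, and Tmem176a, a membrane protein of myeloid cells. Those that rose were Rbm3†, a cold-inducible RNA-binding protein, Chil3†, a secreted chitinase-like protein, Mmp8, the neutrophil collagenase, Nusap1, a protein of the mitotic spindle, and Psmb9, a subunit of the immunoproteasome.

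Tmem176a and Rbm3† had the smallest standard errors of the 10. Tmem176a (GRCm38 chromosome 6, 48840919 to 48847071, plus strand) was at 132, 139 and 139 CPM in the controls and 32.8, 38.0 and 34.9 CPM in the depleted libraries. It fell by 1.95 on the log2 scale (SE 0.17, adjusted p = 1.56e-06), and the groups lay far apart with little spread within either. Rbm3† (chromosome X, 8138975 to 8145880, minus strand) was at 369.7, 290.1 and 333 against 1270, 1141 and 1346 CPM and rose by 1.92 on the log2 scale (SE 0.17, adjusted p = 1.56e-06). Cd209a (chromosome 8, 3743397 to 3748984, minus strand) was at 99.0, 56.3 and 97.3 against 7.93, 3.91 and 8.30 CPM, a log2 change of -3.64 with an SE of 0.33 (adjusted p = 1.56e-06). The lowest control library thus held several times more Cd209a than the highest depleted library. Chil3† (chromosome 3, 106147554 to 106167564, minus strand) was at 548, 447 and 318 against 3145, 2752 and 2430 CPM, a log2 change of 2.67 with an SE of 0.28 (adjusted p = 2.53e-05). In the Rn18s-rs5 and neutrophil covariate fits the log2 change was -2.01 and -1.87 for Tmem176a, 1.79 and 1.65 for Rbm3†, -3.47 and -3.52 for Cd209a, and 2.18 and 2.15 for Chil3†.

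**Figure D2:**
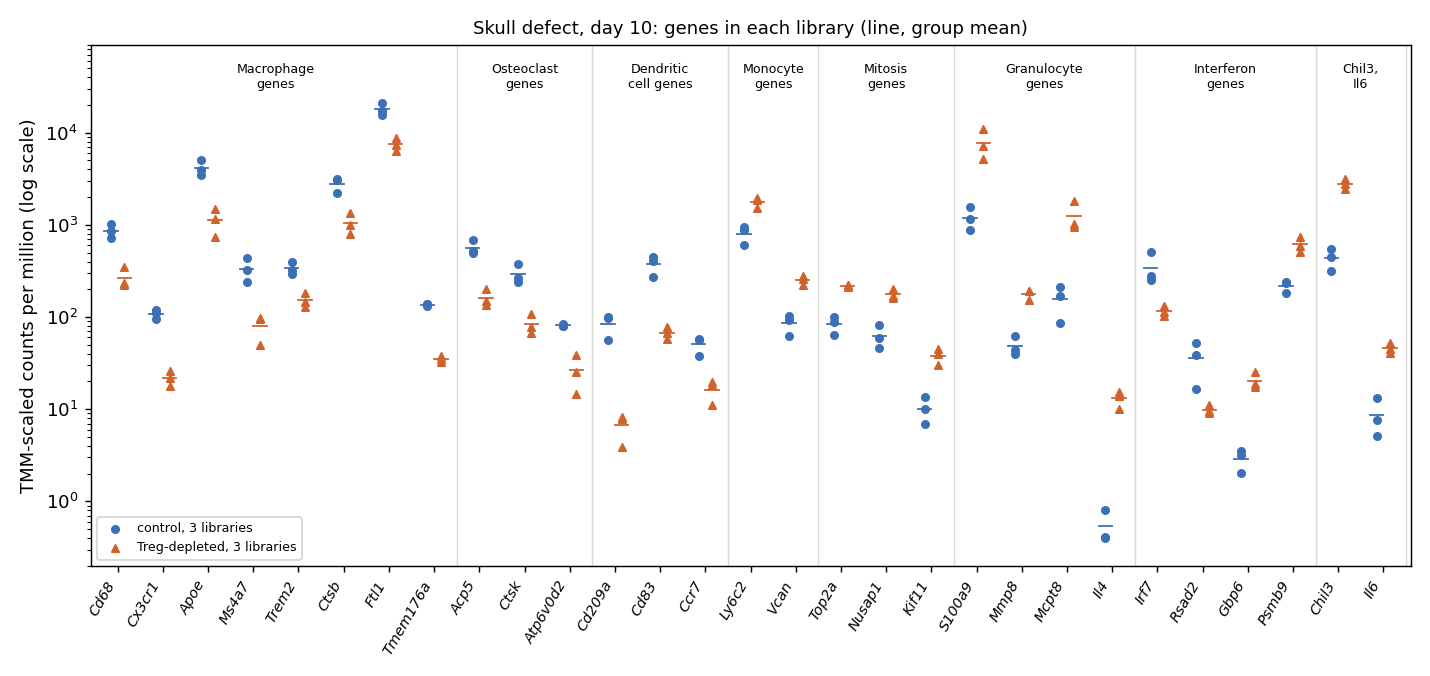
Level of genes named in the text in each day 10 library (y axis, TMM-scaled CPM on a log scale; blue circles, 3 controls; orange triangles, 3 Treg-depleted; line, group mean). In each of the genes drawn all 3 depleted libraries lay on one side of all 3 controls, lower for macrophage, osteoclast and dendritic cell genes and higher for monocyte, mitosis and granulocyte genes. The genes drawn are a selection, so this separation describes them and not their lists. Members of the same lists that overlapped, such as Adgre1 and Mrc1, or went the other way, such as Itgam†, are not drawn.

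The largest changes by the naming rule were in genes with few counts in 1 of the groups. Col6a5, a collagen VI chain, had 0 counts over the 3 controls and 46 over the depleted libraries, at least 15.5-fold higher against a floor of 3 counts over the group. Rhox8†, a homeobox gene, had 1 against 92 counts, a ratio of 93.1 (95% counting interval 16.3 to 3720). Vmn1r188†, a vomeronasal receptor gene, had 3 against 202, a ratio of 68.1 (23.0 to 333), and its depleted libraries were uneven at 40.7, 7.46 and 22.6 CPM. Cstdc5†, a cystatin-domain gene, had 3 against 148, a ratio of 49.9 (16.7 to 245), and was even at 16.9, 14.6 and 19.9 CPM in the depleted libraries. Also among the 12 largest rises were Gbp8, Il4 and Stfa1, described with their groups, and Or4a73, an olfactory receptor gene, at 1.61, 0 and 1.63 against 16.6, 5.69 and 15.6 CPM (log2 3.45 ± 0.79 SE, adjusted p = 0.00603). Car4, carbonic anhydrase 4, went from 0.269, 0.396 and 0.814 to 9.01, 14.6 and 15.9 CPM, a log2 change of 4.72 with an SE of 1.21 (adjusted p = 0.0123), and its call was lost without control 1 (adjusted p = 0.0545) or control 2 (adjusted p = 0.0527). The calls of 3 more of the 12 were lost when a library was left out: Mettl5os† without control 1, control 2 or depleted 1 (adjusted p = 0.0557 to 0.0571), Tnik, a kinase gene, without control 1, depleted 1 or depleted 3 (adjusted p = 0.0634 to 0.0704), and Grm6, a glutamate receptor gene, without any library but depleted 3 (adjusted p = 0.0517 to 0.0902). Mettl5os†, a transcript from the strand opposite Mettl5 whose reads may not be told apart from that gene's, had 2 counts in the controls and 43 in the depleted libraries, a ratio of 21.7 (5.67 to 185).

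Among the largest falls, Apbb1, an adaptor that binds the amyloid precursor protein, was at 11.3, 15.9 and 13.4 against 1.44, 1.42 and 0.332 CPM and fell by 3.64 on the log2 scale (SE 0.54, adjusted p = 0.000251). Spon2, a secreted matrix protein that binds microbial products, was at 48.1, 46.0 and 18.3 against 3.61, 3.20 and 3.32 CPM and fell by 3.47 on the log2 scale (SE 0.73, adjusted p = 0.00484). Its depleted libraries were alike, and control 3 lay lower than controls 1 and 2. Cd7, an immunoglobulin-family receptor of T and NK cells and of some progenitors, was at 11.3, 6.74 and 6.51 against 1.80, 0.355 and 0 CPM and fell by 3.49 on the log2 scale (SE 0.77, adjusted p = 0.00433). Crabp1, a retinoic acid-binding protein, had 65 counts in the controls and 1 in the depleted libraries, a ratio of 0.0156 (0.000388 to 0.0898), and Tmem204, a membrane protein of cell contacts, 50 and 2, a ratio of 0.0405 (0.00477 to 0.154). Stmn4, a microtubule regulator, had 59 and 1 counts, a ratio of 0.0171 (0.000427 to 0.0993), and its call was lost without control 1, depleted 1, depleted 2 or depleted 3 (adjusted p = 0.0623 to 0.0968). Prkar1b†, a regulatory subunit of protein kinase A, had 42 and 3 counts, a ratio of 0.0723 (0.0143 to 0.226), and its call was lost without control 3, depleted 1 or depleted 3 (adjusted p = 0.0659 to 0.0858). Oscar, Cd209a and the 3 osteocalcin genes completed the 12 and stand with their groups.

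Genes of resident tissue macrophages were lower in depleted cells. Of 28 tested, 12 fell (42.9%) and 0 rose, against 8.22% and 8.95% of all genes, and the list's median log2 change was -1.0. Cx3cr1 (chromosome 9, 119901616 to 120069879, minus strand) was at 120.2, 112 and 94.0 against 17.7, 25.9 and 21.6 CPM, a log2 change of -2.32 with an SE of 0.24 (adjusted p = 9.98e-06). Hpgd, which breaks down prostaglandins, was at 14.8, 14.3 and 13.8 against 2.52, 3.55 and 1.33 CPM, a log2 change of -2.53 with an SE of 0.45 (adjusted p = 0.000995), and Folr2, the folate receptor of tissue macrophages, at 44.6, 59.5 and 83.1 against 9.73, 11.7 and 22.9 CPM, a log2 change of -2.06 with an SE of 0.46 (adjusted p = 0.00735). All 3 genes were lower in every depleted library than in any control. Ms4a7, a tetraspan membrane protein of macrophages, was at 239, 323 and 438 against 49.4, 95.6 and 97.7 CPM (log2 -2.04 ± 0.31 SE, adjusted p = 0.000379), and Apoe, a lipid-carrying apolipoprotein, at 3432, 3959 and 5105 against 738, 1479 and 1144 CPM (log2 -1.89 ± 0.27 SE, adjusted p = 0.000251). Tmem119, better known from microglia, also fell, by 1.28 on the log2 scale (SE 0.30, adjusted p = 0.00713). Without control 3, 6 of the list were called. The covariate for Rn18s-rs5 left 3 falls called and that for neutrophil genes 1, with medians of -0.95 and -0.01.

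Not every gene of that list moved with the others. Pf4, a chemokine made by resident macrophages and platelets, was at 355, 319.8 and 682 against 87.6, 156 and 176 CPM, a log2 change of -1.69 with an SE of 0.60 (adjusted p = 0.0730). Mrc1, the mannose receptor, was at 38.5, 36.9 and 72.5 against 49.7, 55.4 and 124 CPM (log2 0.64 ± 0.53 SE, adjusted p = 0.440), and the chemokine gene Ccl8 at 92.5, 69.8 and 98.9 against 115, 181 and 235 CPM (log2 1.02 ± 0.43 SE, adjusted p = 0.121). Neither Mrc1 nor Ccl8 passed, and in Mrc1 the groups overlapped. The hyaluronan receptor gene Lyve1 and the haemoglobin scavenger receptor gene Cd163 were scarce in every library, at no more than 5.98 and 9.97 CPM.

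Of the 20 macrophage core markers 9 fell (45.0%), 1 rose (5.00%) and 10 did not pass (median log2 change -0.54), beside 8.22% lower and 8.95% higher of all genes. The falls numbered 5 without control 3 and 4 without depleted 3. In the Rn18s-rs5 and neutrophil covariate fits 2 and 1 were called lower and 0 and 2 higher, with medians of -0.67 and -0.13. Cd68 (chromosome 11, 69664213 to 69666153, minus strand) was at 711, 863 and 1010 against 221, 347 and 235 CPM, a log2 change of -1.69 with an SE of 0.20 (adjusted p = 4.08e-05). Csf1r, the receptor of the macrophage growth factor CSF1, was at 301, 327 and 381 against 130.1, 183 and 166 CPM, a log2 change of -1.07 with an SE of 0.18 (adjusted p = 0.000601), and Cd14, a co-receptor for bacterial lipopolysaccharide, at 759.6, 790.2 and 874 against 393, 442 and 332 CPM, a log2 change of -1.05 with an SE of 0.17 (adjusted p = 0.000336). Itgam†, the integrin chain CD11b carried by monocytes, neutrophils and macrophages alike, went the other way, at 231, 289 and 301 against 382, 482 and 719.8 CPM (log2 0.95 ± 0.22 SE, adjusted p = 0.00652), a call lost without depleted 3 (adjusted p = 0.0577). Adgre1, which encodes F4/80, was at 83.1, 84.4 and 109.9 against 52.3, 77.1 and 91.7 CPM with overlapping groups (log2 -0.32 ± 0.22 SE, adjusted p = 0.325), and Spi1, the master transcription factor of the myeloid lineage, at 105, 99.9 and 119 against 98.0, 117 and 101 CPM (log2 -0.03 ± 0.16 SE, adjusted p = 0.912). Neither Adgre1 nor Spi1 passed.

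Of 23 genes of lipid-associated macrophages, 15 fell (65.2%, beside 8.22% of all genes) and 0 rose. The median log2 change was -0.95, and the calls of 11 were kept whichever library was left out. Spp1†, osteopontin, was at 3104, 3804 and 4395 against 707, 868 and 993 CPM, a log2 change of -2.14 with an SE of 0.47 (adjusted p = 0.00785). It is also made by osteoblasts and is counted in that list as well. Plin2†, which coats lipid droplets, was at 373, 444 and 495 against 118, 192 and 146 CPM, a log2 change of -1.53 with an SE of 0.22 (adjusted p = 0.000225), and Trem2, a lipid-sensing receptor, at 289.9, 320.2 and 399 against 127, 180.2 and 146 CPM, a log2 change of -1.15 with an SE of 0.24 (adjusted p = 0.00356). In Spp1†, Plin2† and Trem2 the groups did not overlap. In the Rn18s-rs5 and neutrophil covariate fits 3 and 0 of the list were called lower, with medians of -1.14 and -0.50. Gpnmb, a glycoprotein of foamy macrophages, was at 254, 250.1 and 265 against 40.4, 94.5 and 70.8 CPM (log2 -1.90 ± 0.58 SE, adjusted p = 0.0397), a call lost without any library but depleted 2 (adjusted p = 0.0705 to 0.138). Nr1h3, the sterol-sensing nuclear receptor LXR alpha, was at 33.3, 12.3 and 35.4 against 7.93, 10.3 and 4.65 CPM (log2 -1.83 ± 0.49 SE, adjusted p = 0.0155), a call lost without control 1, control 3, depleted 1 or depleted 3 (adjusted p = 0.0526 to 0.0802). Cd36, a scavenger receptor for oxidised lipid, was at 347, 451 and 552 against 172, 248 and 215 CPM and did not pass (log2 -1.09 ± 0.52 SE, adjusted p = 0.167).

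Genes that export cholesterol or answer to LXR had 6 of 15 lower (40.0%, beside 8.22% of all genes) and 0 higher, and their median log2 change was -0.53. The count was 3 without control 3, and 1 and 0 with the Rn18s-rs5 and neutrophil covariates (medians -0.70 and -0.22). Pparg, a nuclear receptor that senses fatty acids, was at 9.68, 7.53 and 12.2 against 0.361, 3.20 and 0.997 CPM, a log2 change of -2.67 with an SE of 0.63 (adjusted p = 0.00693). Pltp, the phospholipid transfer protein, was at 205, 249.7 and 322 against 78.9, 111 and 90.0 CPM, a log2 change of -1.47 with an SE of 0.22 (adjusted p = 0.000244). Abcg1, a cholesterol exporter, fell by 0.95 on the log2 scale (SE 0.24, adjusted p = 0.00994), a call lost without control 3 (adjusted p = 0.0624). Of 24 genes of sterol and fatty acid synthesis 2 rose and 0 fell, a share of 8.33% beside 8.95% of all genes. Among them Scd2†, a fatty acid desaturase, had a log2 change of 1.12 with an SE of 0.29 (adjusted p = 0.0121), lost without control 3 (adjusted p = 0.0581) or depleted 3 (adjusted p = 0.0639).

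Lysosome genes were lower across much of the list. Of 33 tested, 17 fell (51.5%, beside 8.22% of all genes) and 0 rose (median log2 change -0.70). 13 of those calls were kept whichever library was left out. Ctsb, cathepsin B, was at 2211, 3038 and 3166 against 787, 1347 and 993 CPM, a log2 change of -1.43 with an SE of 0.25 (adjusted p = 0.000878). Lipa, the lysosomal acid lipase, was at 119, 166 and 197 against 59.5, 94.2 and 66.4 CPM, a log2 change of -1.13 with an SE of 0.23 (adjusted p = 0.00249). The control and depleted libraries did not overlap in Ctsb or Lipa. Hexa, a subunit of a lysosomal glycosidase, fell by 0.87 on the log2 scale (SE 0.14, adjusted p = 0.000367), and Ctsd†, cathepsin D, by 0.82 on the log2 scale (SE 0.18, adjusted p = 0.00455). The 2 covariate fits called 2 and 3 of the list lower, with medians of -0.70 (Rn18s-rs5) and -0.24 (neutrophil). Cd68, Cd63†, Ctsb, Lipa and Ctsd† stand in more than 1 of the lists given here, so the counts of those lists are not independent.

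Iron genes were lower as well: of 19 iron and haem genes 9 fell (47.4%, beside 8.22% of all genes) and 1 rose (5.26%, beside 8.95%), with a median log2 change of -0.78. With the Rn18s-rs5 covariate 3 of the list were called lower and with the neutrophil covariate 0, at medians of -0.86 and -0.65. Ftl1†, the ferritin light chain, was at 15450, 17290 and 20880 against 7293, 8673 and 6383 CPM, a log2 change of -1.26 with an SE of 0.19 (adjusted p = 0.000296). Hmox1, which degrades haem, was at 21.8, 17.8 and 61.9 against 6.13, 12.4 and 11.6 CPM, a log2 change of -1.73 with an SE of 0.38 (adjusted p = 0.00484), with control 3 far above the other controls. Trf†, transferrin, was at 198, 223 and 228 against 67.8, 104 and 71.8 CPM, a log2 change of -1.42 with an SE of 0.20 (adjusted p = 0.000179). The metal transporter gene Slc11a2 fell by 1.65 on the log2 scale (SE 0.36, adjusted p = 0.00432), and Slc11a1, its relative in the phagosome membrane, by 1.20 on the log2 scale (SE 0.24, adjusted p = 0.00225). The 1 gene that rose was Lcn2, lipocalin 2, a neutrophil protein that binds the iron carriers of bacteria, at 234, 253 and 136 against 919, 634 and 628 CPM (log2 1.81 ± 0.32 SE, adjusted p = 0.00132). It moved with the neutrophil genes, in whose list it also stands.

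Of 22 genes of efferocytosis, the uptake of dying cells, 6 fell (27.3%, beside 8.22% of all genes) and 1 rose (4.55%, beside 8.95%). The falls numbered 3 without control 3 and 2 without depleted 1, and neither covariate fit called any of the list (0 and 0 lower, medians -0.68 and -0.07). Axl, a receptor tyrosine kinase that recognises dying cells, was at 78.8, 67.0 and 81.0 against 24.5, 34.8 and 34.9 CPM (log2 -1.27 ± 0.32 SE, adjusted p = 0.0109), a call lost without depleted 1 (adjusted p = 0.0583). Its ligand Gas6 was at 21.5, 18.6 and 35.0 against 3.97, 14.2 and 10.3 CPM (log2 -1.39 ± 0.42 SE, adjusted p = 0.0269), lost without control 3, depleted 1 or depleted 3 (adjusted p = 0.0717 to 0.128), and its log2 change was 0.06 with the neutrophil covariate. Mfge8, which bridges dying cells to integrins, fell by 1.23 on the log2 scale (SE 0.32, adjusted p = 0.0137), lost without control 2, depleted 1 or depleted 3 (adjusted p = 0.0508 to 0.0765), and Stab1, a scavenger receptor, by 1.44 on the log2 scale (SE 0.35, adjusted p = 0.00865), lost without control 3 (adjusted p = 0.0781). Cd300lf, a phosphatidylserine-binding receptor, rose from 55.9, 61.4 and 50.9 to 103, 130.1 and 86.4 CPM (log2 0.92 ± 0.19 SE, adjusted p = 0.00306), a call kept whichever library was left out.

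**Figure D3:**
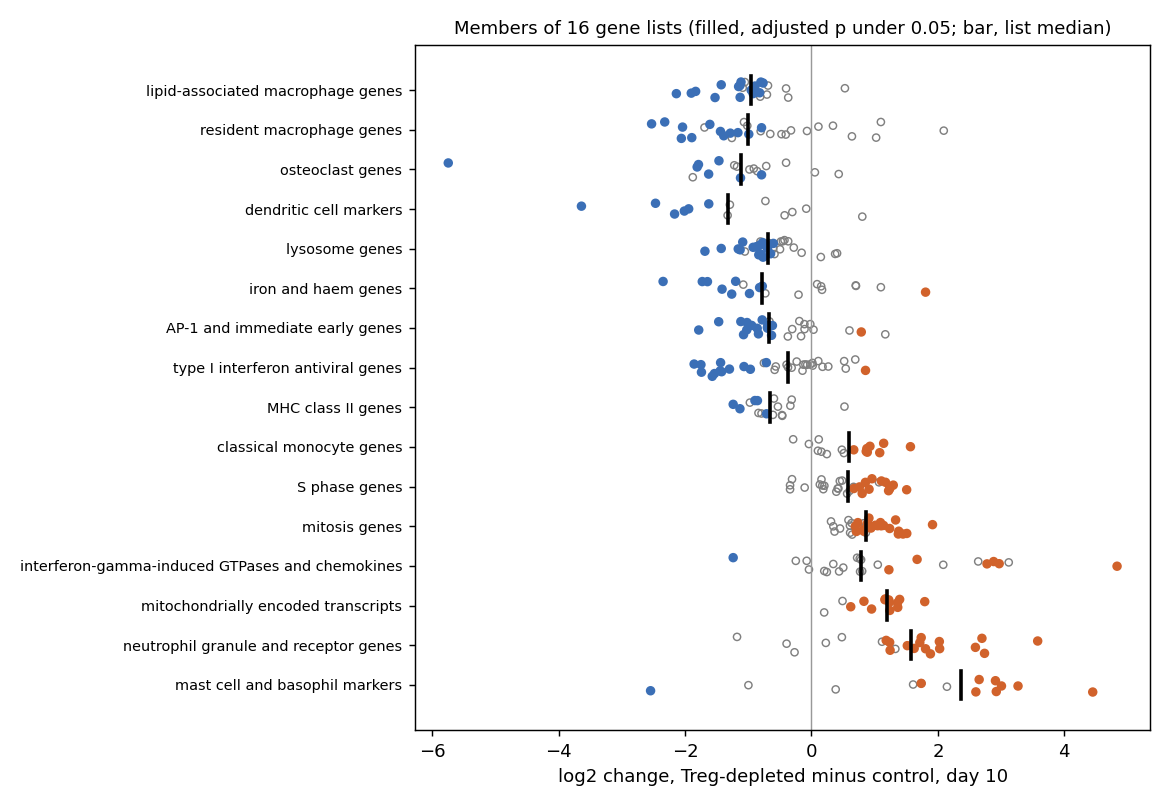
Log2 change (x axis, Treg-depleted minus control at day 10) of each tested member of 16 gene lists (y axis); filled points passed an adjusted p of 0.05 (blue lower, orange higher), open points did not, and the black bar is the list's median. Medians of the macrophage, osteoclast, dendritic cell, lysosome and iron lists lie to the left of 0, and those of the monocyte, cell division, mitochondrial and granulocyte lists to the right.

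Osteoclast genes were lower in the cells from depleted mice. Of 17 tested, 7 fell (41.2%, beside 8.22% of all genes) and 0 rose, with a median log2 change of -1.12. Acp5, the tartrate-resistant acid phosphatase (chromosome 9, 22126727 to 22135711, minus strand), was at 678, 501 and 519.8 against 149, 136 and 199.6 CPM, a log2 change of -1.81 with an SE of 0.40 (adjusted p = 0.00768). Ctsk, the collagen-degrading cathepsin K, was at 372, 268 and 239 against 78.2, 67.5 and 109 CPM, a log2 change of -1.79 with an SE of 0.41 (adjusted p = 0.00942). Every depleted library held less of both transcripts than every control. Oscar, a collagen receptor that costimulates osteoclast formation (chromosome 7, 3609813 to 3616157, minus strand), had 70 counts in the controls and 1 in the depleted libraries, a ratio of 0.0145 (0.000361 to 0.0832). Atp6v0d2, a proton pump subunit, was at 85.0, 80.1 and 80.6 against 14.8, 25.2 and 39.2 CPM (log2 -1.63 ± 0.41 SE, adjusted p = 0.0117), lost without depleted 1 (adjusted p = 0.0551). Tnfrsf11a, which encodes RANK, the receptor for the osteoclast-forming cytokine, fell by 1.46 on the log2 scale (SE 0.38, adjusted p = 0.0121), lost without control 3 (adjusted p = 0.0746) or depleted 1 (adjusted p = 0.0675), and Nfatc1, the transcription factor downstream of it, by 0.79 on the log2 scale (SE 0.20, adjusted p = 0.0104), lost without control 3 (adjusted p = 0.0533). Of the list 4 were called without control 3 and 4 without depleted 1. Either covariate ended all of these calls (0 and 0), and the medians were -0.88 with Rn18s-rs5 and -0.41 with the neutrophil level.

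The fusion gene Dcstamp (26.4, 27.7 and 29.7 against 17.3, 13.9 and 13.3 CPM, log2 -0.91 ± 0.45 SE, adjusted p = 0.168) and Mmp9, a gelatinase of osteoclasts and neutrophils (241, 167 and 185 against 95.5, 46.6 and 120.2 CPM, log2 -1.18 ± 0.46 SE, adjusted p = 0.0979), did not pass, although their groups did not overlap. Tnfsf11, which encodes the RANK ligand, had 10 counts in the controls and 7 in the depleted libraries and was not tested. Of 12 tested genes that signal between bone-resorbing and bone-forming cells 1 rose and 1 fell (8.33% each way, near the 8.95% and 8.22% of all genes). Il6 rose, and the semaphorin gene Sema4d fell by 0.87 on the log2 scale (SE 0.26, adjusted p = 0.0257), lost without any library but control 1 (adjusted p = 0.0513 to 0.0877). Markers of osteoblasts and cartilage cells, which the sort should leave out, summed to 5181, 4930 and 5650 CPM in the controls and 1210, 1525 and 1505 CPM in the depleted libraries. Most of this sum in every library was Spp1†, which also stands in the list of lipid-associated macrophages. Whether osteoblasts or macrophages held this Spp1† was not tested. The osteocalcin genes Bglap†, Bglap2† and Bglap3†, near-identical copies, fell from 106, 31.7 and 51.3 to 4.33, 6.04 and 3.99 CPM in the first of them (log2 -3.73 ± 1.09 SE, adjusted p = 0.0348), with control 1 far above the others. The call of Bglap† was lost without any library but control 2 (adjusted p = 0.0632 to 0.112), that of Bglap2† (-4.20) without any library but control 2 (adjusted p = 0.0607 to 0.111), and that of Bglap3† (-4.46) without any 1 of the 6 libraries (adjusted p = 0.0583 to 0.140). Whether osteoblast RNA had a part in the changes of the osteoclast list was not tested.

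Genes of classical monocytes were higher in depleted cells. Of 16 tested, 8 rose (50%) and 0 fell, against 8.95% and 8.22% of all genes (median log2 change 0.59). 7 of these calls were kept whichever library was left out. Ly6c2†, the Ly6C antigen, was at 938, 873 and 602 against 1941, 1878 and 1509 CPM, a log2 change of 1.14 with an SE of 0.22 (adjusted p = 0.00183). Vcan, the matrix proteoglycan versican, was at 91.7, 63.0 and 101 against 222, 259 and 277 CPM, a log2 change of 1.57 with an SE of 0.29 (adjusted p = 0.00151). Depleted libraries lay above every control in both Ly6c2† and Vcan. Gpr141, an orphan receptor gene, rose by 0.93 on the log2 scale (SE 0.17, adjusted p = 0.00102), and Plac8, a small cytoplasmic protein of immature myeloid cells, by 0.88 on the log2 scale (SE 0.20, adjusted p = 0.00551). Ccr2, the receptor that draws monocytes out of the marrow, was at 599, 602 and 583 against 674, 709.6 and 728 CPM and did not pass (log2 0.24 ± 0.14 SE, adjusted p = 0.255). With the Rn18s-rs5 or the neutrophil covariate 0 and 0 genes of the list were called higher, and the medians were 0.50 and 0.46.

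Of 15 non-classical monocyte genes 4 rose and 4 fell (26.7% in each direction, beside 8.95% higher and 8.22% lower of all genes). The rises numbered 2 without control 2, 2 without control 3 and 2 without depleted 1, and the falls 2 without depleted 1. The covariate fits called 0 of either. Spn, the sialoprotein CD43, was at 17.8, 25.4 and 15.1 against 50.5, 42.6 and 48.2 CPM, a log2 change of 1.28 with an SE of 0.23 (adjusted p = 0.000997), and Ear2†, a ribonuclease shared with eosinophils, at 37.1, 28.9 and 18.3 against 60.6, 66.5 and 76.1 CPM, a log2 change of 1.25 with an SE of 0.30 (adjusted p = 0.00696). Cd300ld†, an activating receptor, went down from 57.3, 72.1 and 82.2 to 25.2, 27.4 and 31.9 CPM (log2 -1.32 ± 0.25 SE, adjusted p = 0.00164), as did Nr4a1, the orphan nuclear receptor required for this monocyte subset, from 189.8, 277 and 253 to 118, 145 and 133 CPM (log2 -0.86 ± 0.19 SE, adjusted p = 0.00484). Eno3, an enolase, was at 36.6, 26.6 and 27.7 against 8.65, 11.4 and 16.6 CPM (log2 -1.31 ± 0.41 SE, adjusted p = 0.0335), a call lost without any library but depleted 3 (adjusted p = 0.0555 to 0.135). The subset's genes thus moved in both directions.

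Neutrophil genes were higher in depleted libraries, with 15 of 22 called higher (68.2%, beside 8.95% of all genes) and 0 lower (median log2 change 1.57). S100a9, a chain of calprotectin, was at 1558, 1154 and 874 against 11000, 5179 and 7094 CPM, a log2 change of 2.70 with an SE of 0.46 (adjusted p = 0.00156). Mmp8 (chromosome 9, 7558456 to 7568485, plus strand) was at 40.1, 62.6 and 43.6 against 193, 193 and 152 CPM, a log2 change of 1.88 with an SE of 0.21 (adjusted p = 2.61e-05), and was the more even of the pair across the depleted libraries. Ly6g†, the defining surface antigen of mouse neutrophils, was scarce in all libraries, at 2.42, 1.59 and 0.407 against 12.3, 10.3 and 9.30 CPM (log2 2.74 ± 0.67 SE, adjusted p = 0.00859). Stfa1†, a stefin, was at 0.538, 5.15 and 0.407 against 24.5, 23.8 and 21.3 CPM (log2 3.58 ± 0.86 SE, adjusted p = 0.0101), and Olfm4, a granule glycoprotein, at 1.88, 1.19 and 0 against 8.29, 4.26 and 7.97 CPM (log2 2.59 ± 0.66 SE, adjusted p = 0.0108). Of the list 8 were called without control 3 and 8 without depleted 1, and 1 with the Rn18s-rs5 covariate (median 1.47). Csf3r, the G-CSF receptor, did not pass (39.3, 42.0 and 29.7 against 20.9, 40.2 and 23.6 CPM). Among 20 genes of granulocyte progenitors 4 rose (20%, beside 8.95% of all genes) and 1 fell (5%, beside 8.22%). Mpo, myeloperoxidase, was at 815, 896 and 340.3 against 820, 635 and 511 CPM with overlapping groups (log2 -0.06 ± 0.36 SE, adjusted p = 0.928). Cebpe, a transcription factor of late granulocyte development, rose from 19.6, 13.9 and 10.2 to 66.3, 35.2 and 68.8 CPM (log2 1.94 ± 0.35 SE, adjusted p = 0.00105).

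Mast cell and basophil markers were also higher. Of 14 tested 8 rose (57.1%, beside 8.95% of all genes) and 1 fell (7.14%, beside 8.22%), with a median log2 change of 2.37. Summed they held 727.1, 613.1 and 267.5 against 4141, 2247 and 2192 CPM. Il4, the leading cytokine of type 2 immunity (chromosome 11, 53602982 to 53618669, minus strand), was close to absent in the controls at 0.807, 0.396 and 0.407 CPM and stood at 15.5, 13.9 and 9.97 CPM in the depleted libraries. It rose by 4.45 on the log2 scale (SE 0.79, adjusted p = 0.000873), on 5 against 112 counts, and its log2 change was 6.87 (adjusted p = 0.0460) with the Rn18s-rs5 covariate and 2.71 (adjusted p = 0.200) with the neutrophil covariate. Ms4a2, the beta chain of the high-affinity IgE receptor, was at 5.38, 2.38 and 1.63 against 33.5, 18.5 and 23.3 CPM, a log2 change of 2.91 with an SE of 0.64 (adjusted p = 0.00477), and Cyp11a1, a steroid-making enzyme expressed by basophils and mast cells, at 3.23, 5.95 and 0.814 against 27.4, 18.8 and 50.8 CPM, a log2 change of 3.27 with an SE of 0.71 (adjusted p = 0.00542). All 3 were higher in every depleted library than in any control. Mcpt8, the basophil protease, was at 214, 169 and 85.9 against 1800, 951 and 1027 CPM (log2 3.01 ± 0.74 SE, adjusted p = 0.0160), and its call was lost without control 2, control 3 or depleted 1 (adjusted p = 0.0538 to 0.0681). Fcer1a, the alpha chain of that IgE receptor, rose by 2.92 on the log2 scale (SE 0.78, adjusted p = 0.0178), lost without control 2, control 3 or depleted 1 (adjusted p = 0.0600 to 0.0767). Cma1†, a chymase of connective tissue mast cells, was the 1 gene that fell, from 23.4, 20.6 and 8.55 to 1.08, 2.49 and 5.32 CPM (log2 -2.55 ± 0.68 SE, adjusted p = 0.0151), lost without depleted 1 (adjusted p = 0.0770). The list had 5 rises without control 2, 4 without control 3 and 5 without depleted 1, and 1 and 0 in the Rn18s-rs5 and neutrophil covariate fits, with medians of 2.40 and 0.43.

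Il4ra, the receptor chain through which macrophages sense IL-4, was at 103, 87.2 and 117 against 49.4, 44.1 and 55.5 CPM and fell by 1.05 on the log2 scale (SE 0.20, adjusted p = 0.00157). Stat6, which carries the signal on, fell by 0.79 on the log2 scale (SE 0.23, adjusted p = 0.0209), lost without control 3, depleted 1 or depleted 3 (adjusted p = 0.0689 to 0.117). Genes that IL-4 is known to induce in macrophages were split. Chil3† and its relative Chil4† rose, the latter from 1.34, 1.98 and 0.407 to 9.37, 9.24 and 7.64 CPM (log2 2.76 ± 0.53 SE, adjusted p = 0.00162). Retnla†, a secreted protein of alternatively activated macrophages, was at 93.0, 163 and 113 against 605, 705 and 896 CPM (log2 2.58 ± 1.06 SE, adjusted p = 0.116), and Arg1, arginase 1, at 86.6, 59.1 and 131 against 272, 319 and 469 CPM (log2 1.94 ± 0.89 SE, adjusted p = 0.156). Neither Retnla† nor Arg1 passed, although all depleted libraries lay above all controls in both. Of 22 alternative activation genes 3 rose (13.6%, beside 8.95% of all genes) and 5 fell (22.7%, beside 8.22%), with Cd209a the largest fall. The list's median log2 change was 0.49. Summed, the list was at 1867, 1790 and 1847 CPM in the controls and 5198, 4782 and 5115 CPM in the depleted libraries, without overlap (two-sided exact permutation p = 0.1, again as low as it can go). Chil3† was its most abundant member in the depleted libraries. The falls numbered 2 without control 2, 1 without control 3, 1 without depleted 1 and 3 without depleted 3. The Rn18s-rs5 and neutrophil covariates gave 1 and 3 rises and 1 and 1 falls, at medians of 0.01 and 1.67. Egr2 fell by 1.47 on the log2 scale (SE 0.45, adjusted p = 0.0334), lost without control 2, control 3, depleted 1 or depleted 3 (adjusted p = 0.0956 to 0.128).

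Genes of the cell cycle were higher in depleted cells. Of 32 mitosis genes 20 rose (62.5%) and 0 fell (median log2 change 0.86), and of 30 S phase genes 12 rose (40.0%) and 0 fell (median 0.58). Among all genes 8.95% rose and 8.22% fell. Nusap1 (chromosome 2, 119618298 to 119651244, plus strand) was at 59.7, 81.6 and 45.6 against 204, 159 and 169 CPM, a log2 change of 1.51 with an SE of 0.18 (adjusted p = 3.89e-05). Kif11†, the motor that pushes spindle poles apart, was at 9.95, 13.5 and 6.92 against 40.0, 30.2 and 44.5 CPM, a log2 change of 1.92 with an SE of 0.30 (adjusted p = 0.000360), and Top2a, which untangles chromosomes, at 87.9, 101 and 64.3 against 222, 211 and 225 CPM, a log2 change of 1.37 with an SE of 0.21 (adjusted p = 0.000295). In each of Nusap1, Kif11† and Top2a the lowest depleted library lay above the highest control. Mki67, the proliferation marker Ki-67, was at 25.0, 40.0 and 35.4 against 64.2, 81.0 and 90.0 CPM (log2 1.24 ± 0.25 SE, adjusted p = 0.00249), and Cenpe, a kinetochore motor, at 14.5, 19.8 and 15.9 against 41.1, 41.2 and 47.8 CPM (log2 1.38 ± 0.24 SE, adjusted p = 0.000609). Bub1, a spindle checkpoint kinase, rose by 1.45 on the log2 scale (SE 0.39, adjusted p = 0.0153), lost without control 3 (adjusted p = 0.0757) or depleted 3 (adjusted p = 0.0520). Of the mitosis list 9 were called without control 3 and 13 without depleted 1 or without depleted 3. Of the S phase list 0 and 0 were called higher with the Rn18s-rs5 and neutrophil covariates, with medians of 0.63 and 0.04. The Rn18s-rs5 and neutrophil covariates left 1 and 1 mitosis genes called higher, with medians of 0.73 and 0.29.

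Among the S phase genes E2f8, a repressor of the E2F family, was at 6.72, 15.5 and 13.4 against 33.9, 34.1 and 31.2 CPM (log2 1.51 ± 0.32 SE, adjusted p = 0.00336), and Ccne2, cyclin E2, at 49.5, 85.6 and 48.0 against 167, 108 and 173 CPM (log2 1.29 ± 0.31 SE, adjusted p = 0.00871). Mcm5, a subunit of the replicative helicase, was at 38.5, 73.3 and 22.0 against 107, 93.8 and 114 CPM (log2 1.24 ± 0.31 SE, adjusted p = 0.0107), with control 2 at more than its companions. The checkpoint adaptor gene Clspn rose by 1.22 on the log2 scale (SE 0.29, adjusted p = 0.00760). Of 14 cell cycle inhibitors 3 rose and 3 fell (21.4% each way, beside 8.95% higher and 8.22% lower of all genes). Cdkn1a, which encodes p21, was at 438, 351 and 517 against 223, 263 and 252 CPM (log2 -0.82 ± 0.20 SE, adjusted p = 0.00793) and Gadd45b, a stress-response gene, fell by 1.26 on the log2 scale (SE 0.26, adjusted p = 0.00306). Cdkn2c, which encodes p18, went from 11.3, 14.3 and 14.3 to 36.4, 23.1 and 43.9 CPM (log2 1.39 ± 0.27 SE, adjusted p = 0.00164), Ccng2, cyclin G2, rose by 1.72 on the log2 scale (SE 0.28, adjusted p = 0.000506) and Gadd45a by 1.42 on the log2 scale (SE 0.33, adjusted p = 0.00630). Btg2, an antiproliferative factor, fell by 0.70 on the log2 scale (SE 0.19, adjusted p = 0.0167), lost without control 3, depleted 1 or depleted 3 (adjusted p = 0.0626 to 0.0742).

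Promoters of genes with peak expression in mitosis are known to carry the cell cycle homology region (TTTGAA) and CCAAT boxes, and the 250 bases before the start of 3 genes that rose are shown, chosen because they hold both motifs. They are from RefSeq, GRCm38.p6, 5′ to 3′ on the gene's strand, with matches on either strand in capitals. Top2a lies at chr11:99024190-99024439, minus strand, Kif11 at chr19:37376132-37376381, plus strand and Mki67 at chr7:135716380-135716629, minus strand.
Top2a: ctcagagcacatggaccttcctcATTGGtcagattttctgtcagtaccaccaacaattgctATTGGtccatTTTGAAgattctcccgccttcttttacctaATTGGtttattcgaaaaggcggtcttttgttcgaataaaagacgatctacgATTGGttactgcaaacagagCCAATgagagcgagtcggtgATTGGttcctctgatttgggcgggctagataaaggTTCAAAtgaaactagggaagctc
Kif11: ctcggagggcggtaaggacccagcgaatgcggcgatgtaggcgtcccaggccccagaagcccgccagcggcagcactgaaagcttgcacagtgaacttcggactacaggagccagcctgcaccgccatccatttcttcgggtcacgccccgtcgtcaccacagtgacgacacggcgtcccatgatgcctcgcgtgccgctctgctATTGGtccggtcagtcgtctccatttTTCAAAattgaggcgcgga
Mki67: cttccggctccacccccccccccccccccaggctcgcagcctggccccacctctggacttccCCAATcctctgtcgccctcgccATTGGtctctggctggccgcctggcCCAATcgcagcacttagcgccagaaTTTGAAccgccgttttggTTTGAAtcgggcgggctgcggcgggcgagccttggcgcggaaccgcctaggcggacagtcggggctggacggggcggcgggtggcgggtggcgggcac
The windows of Nusap1 and Cenpe, which also rose, held no TTTGAA, and that of Nusap1 no CCAAT. Promoters of 26 of the 32 mitosis genes were in the table, 10 of which held TTTGAA (38.5%) and 21 CCAAT (80.8%), beside 18.3% and 37.5% of all 27025 promoters. Of the 20 that rose 18 had a promoter, 8 with TTTGAA (44.4%) and 14 with CCAAT (77.8%). The E2F site TTTCCCGC stood in 3 of 26 S phase promoters (11.5%) and in 1.03% of all. A match is a description of these letters and not a measured binding site. The lists follow known function, so the shares describe the lists and not the depletion.

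Interferon-induced genes were read in 2 lists. Of 33 type I antiviral genes 12 fell (36.4%, beside 8.22% of all genes) and 1 rose (3.03%, beside 8.95%), with a median log2 change of -0.37. Summed, the type I list was at 1867, 1395 and 2558 CPM in the controls and 1420, 1567 and 1716 CPM in the depleted libraries, with overlap (two-sided exact permutation p = 0.5). Of 24 GTPases and chemokines that interferon-gamma induces most strongly 6 rose (25.0%, beside 8.95% of all genes) and 1 fell (4.17%, beside 8.22%), with a median of 0.78. Irf7, the transcription factor that amplifies type I interferon, was at 280.2, 249 and 502 against 102, 133 and 113 CPM, a log2 change of -1.57 with an SE of 0.31 (adjusted p = 0.00311). Rsad2, the antiviral enzyme viperin, was at 38.5, 16.6 and 52.5 against 9.01, 11.0 and 9.63 CPM, a log2 change of -1.86 with an SE of 0.41 (adjusted p = 0.00485), and Isg20, an antiviral exonuclease, at 49.8, 34.9 and 62.3 against 25.6, 16.7 and 12.6 CPM, a log2 change of -1.42 with an SE of 0.26 (adjusted p = 0.00102). Control 3 was the highest library in each of the 3, and no depleted library reached any control. Ifit1†, Ifit3† and Ifit3b†, which bind foreign RNA, fell by 1.30, 1.74 and 1.75 on the log2 scale, and their calls were lost without control 3, depleted 1, depleted 2 or depleted 3 (adjusted p = 0.0633 to 0.183), without control 3, depleted 1 or depleted 3 (adjusted p = 0.131 to 0.184) and without control 3, depleted 1, depleted 2 or depleted 3 (adjusted p = 0.0609 to 0.125). With the neutrophil covariate the log2 change of Ifit1† was 0.07 and that of Ifit3† 0.03, so the direction of neither held. Isg15†, a ubiquitin-like modifier, fell by 0.97 on the log2 scale (SE 0.28, adjusted p = 0.0236), lost without control 3, depleted 1 or depleted 2 (adjusted p = 0.0626 to 0.153). Of the type I list 3 were called lower without control 3, 4 without depleted 1, 7 without depleted 2 and 7 without depleted 3. In the covariate fits 0 (Rn18s-rs5) and 0 (neutrophil) were called lower, and the medians were -0.36 and 0.07.

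Guanylate-binding proteins made up 5 of the 6 rises. Gbp6† was at 3.50, 3.17 and 2.04 against 17.3, 25.2 and 18.9 CPM, a log2 change of 2.78 with an SE of 0.57 (adjusted p = 0.00325), and Gbp3† at 28.2, 33.7 and 21.6 against 54.8, 73.9 and 66.8 CPM, a log2 change of 1.23 with an SE of 0.25 (adjusted p = 0.00238). Gbp8† had 2 counts in the controls and 65 in the depleted libraries, a ratio of 32.9 (8.74 to 277). These calls were kept whichever library was left out, and the family members share sequence, so reads may have been divided among them. Gbp2 was at 18.6, 18.6 and 20.8 against 47.9, 75.3 and 61.1 CPM (log2 1.67 ± 0.53 SE, adjusted p = 0.0421), a call lost without any 1 of the 6 libraries (adjusted p = 0.0670 to 0.117). Gbp10† rose by 2.88 on the log2 scale (SE 0.79, adjusted p = 0.0159), lost without control 1 (adjusted p = 0.0508) or control 2 (adjusted p = 0.0641), and Gm4951†, an interferon-inducible GTPase, by 2.97 on the log2 scale (SE 0.87, adjusted p = 0.0267), lost without any library but depleted 1 (adjusted p = 0.0576 to 0.0858). The chemokine gene Cxcl9 (3.23, 1.19 and 3.26 against 19.5, 21.3 and 28.2 CPM, log2 3.12 ± 1.26 SE, adjusted p = 0.109) and Iigp1†, a GTPase of vacuoles (12.1, 9.12 and 4.07 against 47.6, 67.2 and 48.2 CPM, log2 2.64 ± 0.93 SE, adjusted p = 0.0696), did not pass, although their groups did not overlap. With the neutrophil covariate the log2 change was 4.46 for Gbp6† and 1.72 for Gbp3† (adjusted p = 0.000257 and 0.00950), and with the Rn18s-rs5 covariate 2.41 and 0.72 (adjusted p = 0.203 and 0.329). The rises numbered 3 without control 1 and 3 without control 2. Over the list the neutrophil and Rn18s-rs5 covariates gave 13 and 0 rises, with medians of 2.14 and 0.59.

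Known promoters of both interferon classes hold the core of the interferon-stimulated response element, GAAA and after any 2 bases GAAA again, shown in capitals on either strand in 3 genes that fell, Rsad2, Ifit1 and Isg15, and in Gbp2, which rose, all chosen because they hold it (RefSeq, GRCm38.p6, 250 bases before the start, 5′ to 3′). Rsad2 lies at chr12:26456453-26456702, minus strand, Ifit1 at chr19:34640639-34640888, plus strand, Isg15 at chr4:156200819-156201068, minus strand and Gbp2 at chr3:142620413-142620662, plus strand.
Rsad2: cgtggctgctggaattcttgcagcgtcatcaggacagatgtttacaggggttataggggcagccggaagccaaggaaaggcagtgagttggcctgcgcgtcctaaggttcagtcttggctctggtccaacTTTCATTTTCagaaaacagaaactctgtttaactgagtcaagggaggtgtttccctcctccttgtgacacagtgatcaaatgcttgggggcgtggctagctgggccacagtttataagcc
Ifit1: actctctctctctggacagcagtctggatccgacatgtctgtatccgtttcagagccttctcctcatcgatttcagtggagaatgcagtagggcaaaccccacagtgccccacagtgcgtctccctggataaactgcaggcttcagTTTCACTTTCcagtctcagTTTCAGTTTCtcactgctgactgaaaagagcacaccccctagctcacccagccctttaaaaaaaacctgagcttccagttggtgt
Isg15: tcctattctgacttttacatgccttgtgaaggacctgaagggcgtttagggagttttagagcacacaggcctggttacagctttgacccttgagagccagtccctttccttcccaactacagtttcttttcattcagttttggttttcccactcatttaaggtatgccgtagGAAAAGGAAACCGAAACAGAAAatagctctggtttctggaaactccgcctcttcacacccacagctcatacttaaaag
Gbp2: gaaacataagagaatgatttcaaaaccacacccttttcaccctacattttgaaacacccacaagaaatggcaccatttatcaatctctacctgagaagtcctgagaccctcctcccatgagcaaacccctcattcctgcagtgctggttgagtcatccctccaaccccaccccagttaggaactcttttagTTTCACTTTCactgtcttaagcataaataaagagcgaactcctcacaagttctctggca
The motif thus stood in promoters of genes called in opposite directions, although the calls of Ifit1, Isg15 and Gbp2 did not hold with every library left out. The window of Irf7, which fell, did not hold the motif. Of the 35 type I genes 25 had a promoter in the table, 13 of them with this core (52%), and of the 27 interferon-gamma genes 17 had one, 11 of them with it (64.7%), beside 3.46% of all promoters. Of the 12 type I genes that fell 9 had a promoter, 6 with the motif (66.7%). The core of the gamma-activated site, TTCNNNGAA, stood in 8 of 17 interferon-gamma promoters (47.1%) and in 8.13% of all. Of the 6 interferon-gamma genes that rose only 2 had a promoter, 2 with the response element core and 0 with TTCNNNGAA. These lists too follow known function, so the shares describe the lists and not the depletion.

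Of 23 immunoproteasome and MHC class I genes 6 rose (26.1%, beside 8.95% of all genes) and 1 fell (4.35%, beside 8.22%). The rises numbered 3 without depleted 2, and 1 and 4 in the Rn18s-rs5 and neutrophil covariate fits, with medians of 0.25 and 0.80. Psmb9 (chromosome 17, 34181987 to 34187764, minus strand) was at 243, 180.3 and 234 against 747, 511 and 589.6 CPM, a log2 change of 1.49 with an SE of 0.18 (adjusted p = 4.08e-05), and H2-Q7†, a non-classical class I chain, at 71.8, 56.3 and 77.4 against 269, 258 and 329.5 CPM, a log2 change of 2.06 with an SE of 0.37 (adjusted p = 0.00188). Neither overlapped between the groups. H2-T22†, another class I chain, rose by 0.83 on the log2 scale (SE 0.22, adjusted p = 0.0117), lost without depleted 2 (adjusted p = 0.0627), and Erap1, which trims peptides, by 0.83 on the log2 scale (SE 0.23, adjusted p = 0.0183), lost without control 1, control 3, depleted 1 or depleted 2 (adjusted p = 0.0524 to 0.0965). Of 16 genes listed for MHC class II presentation 5 fell (31.2%, beside 8.22% of all genes) and 0 rose (median log2 change -0.66). Among the 5 were the protease genes Ctss (log2 -0.71 ± 0.24 SE, adjusted p = 0.0455, lost without control 2, control 3, depleted 1 or depleted 3 (adjusted p = 0.0903 to 0.170)) and Lgmn (log2 -1.13 ± 0.28 SE, adjusted p = 0.00920). The falls numbered 3 without control 1, 1 without control 2, 1 without control 3, 1 without depleted 1 and 1 without depleted 3, and neither covariate fit called any (0 and 0, medians -0.94 and -0.02). H2-Aa was at 1720, 1685 and 1762 against 819, 1077 and 882 CPM and fell by 0.90 on the log2 scale (SE 0.30, adjusted p = 0.0474), lost without any library but depleted 2 (adjusted p = 0.0890 to 0.148), and its log2 change was 0.02 with the neutrophil covariate. Ciita, the regulator of class II transcription, was at 25.0, 27.3 and 26.9 against 9.01, 12.8 and 11.6 CPM (log2 -1.24 ± 0.39 SE, adjusted p = 0.0345), lost without any library but depleted 2 (adjusted p = 0.0574 to 0.123). Cd74, the invariant chain, was at 2659, 3222 and 2954 against 1272, 1882 and 1339 CPM and did not pass (log2 -0.98 ± 0.38 SE, adjusted p = 0.0887).

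Dendritic cell markers were lower. Of 13 tested 6 fell (46.2%) and 0 rose, against 8.22% and 8.95% of all genes. The list summed to 693.5, 808.5 and 846.3 CPM in the controls and 212.7, 232 and 242.5 CPM in the depleted libraries. The falls numbered 3 without control 3 and 3 without depleted 1, and 3 and 2 with the Rn18s-rs5 and neutrophil covariates, at medians of -1.79 and -0.77. Cd83 (chromosome 13, 43784775 to 43803132, plus strand) was at 269.7, 445 and 400.2 against 57.7, 77.1 and 66.4 CPM, a log2 change of -2.47 with an SE of 0.27 (adjusted p = 2.97e-05), and Cacnb3, a calcium channel subunit of mature dendritic cells, at 13.4, 30.1 and 18.3 against 3.97, 5.69 and 3.99 CPM, a log2 change of -2.17 with an SE of 0.52 (adjusted p = 0.00782). Klrd1, the NK receptor CD94, which also stands in the T and NK cell list, fell by 2.01 on the log2 scale (SE 0.52, adjusted p = 0.0117), lost without control 3, depleted 1 or depleted 3 (adjusted p = 0.0581 to 0.0652). Ccr7, which guides mature dendritic cells to lymph nodes, was at 57.8, 37.7 and 55.8 against 18.4, 11.0 and 19.6 CPM (log2 -1.63 ± 0.45 SE, adjusted p = 0.0197), lost without control 1, control 3, depleted 1 or depleted 2 (adjusted p = 0.0557 to 0.0661), and Fscn1, an actin-bundling protein of the same cells, fell by 1.94 on the log2 scale (SE 0.53, adjusted p = 0.0202), lost without any library but control 2 (adjusted p = 0.0516 to 0.0805). Xcr1, which defines another dendritic cell class, had 4 and 20 counts and was not tested, and Flt3 was at 4.30, 7.53 and 7.74 against 3.97, 5.33 and 6.31 CPM with overlapping groups. The part of dendritic cells in the falls of MHC class II genes was not tested.

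Markers of further cells that a sort can carry along were measured as well. T and NK cell markers summed to 343.1, 289.7 and 188.1 CPM in the controls and 415.6, 281.8 and 264.7 CPM in the depleted libraries, which overlapped (exact permutation p = 0.6, two-sided). Of 18 tested 3 rose (16.7%, beside 8.95% of all genes) and 1 fell (5.56%, beside 8.22%). Gzmb, the cytotoxic protease granzyme B, was at 2.69, 2.38 and 0.407 against 13.3, 8.53 and 5.65 CPM (log2 2.24 ± 0.65 SE, adjusted p = 0.0226), lost without control 2, control 3 or depleted 1 (adjusted p = 0.0535 to 0.104), and Cd3d, a chain of the T cell receptor complex, at 4.03, 5.15 and 3.26 against 26.7, 16.0 and 5.32 CPM (log2 1.93 ± 0.62 SE, adjusted p = 0.0369), lost without any library but depleted 3 (adjusted p = 0.0697 to 0.202). Fibroblast and mural cell markers, collagen genes among them, were plentiful at 10660, 6493 and 6551 against 4648, 5353 and 4627 CPM. Of 20 tested 1 fell (5%, beside 8.22% of all genes), Cspg4 (log2 -2.78 ± 0.94 SE, adjusted p = 0.0466), lost without any library but depleted 2 (adjusted p = 0.0712 to 0.160). Platelet markers summed to 397.7, 352.7 and 723.8 against 121.1, 182.3 and 200.6 CPM and endothelial markers to 70.72, 54.69 and 51.29 against 81.1, 78.17 and 114.9 CPM (exact permutation p = 0.1 for each, two-sided). Most of the platelet sum in every library was Pf4, which resident macrophages also make and which did not pass. Whether platelets or macrophages held this Pf4 was not tested. Pecam1, an adhesion molecule of endothelium that monocytes and neutrophils also carry, rose from 22.9, 25.4 and 20.4 to 59.5, 33.8 and 78.1 CPM (log2 1.32 ± 0.28 SE, adjusted p = 0.00306). Eosinophil markers (656.1, 466.8 and 314.7 against 482.3, 508.1 and 531.1 CPM) and erythroid markers (902.1, 448.6 and 383.1 against 817.2, 751.5 and 1062 CPM) overlapped between the groups (exact permutation p = 0.7 and 0.3, two-sided). Of 14 B and plasma cell markers 1 fell (7.14%, near the 8.22% of all genes). It was Cd79a†, a chain of the B cell receptor, at 7.53, 4.36 and 2.85 against 2.16, 0.711 and 0.332 CPM (log2 -2.21 ± 0.69 SE, adjusted p = 0.0308), lost without control 1, control 2, depleted 2 or depleted 3 (adjusted p = 0.0555 to 0.144).

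Of 17 inflammatory cytokine genes 1 rose (5.88%) and 4 fell (23.5%), beside 8.95% and 8.22% of all genes. Il6, a cytokine of acute inflammation that also acts on bone cells (chromosome 5, 30013114 to 30019981, plus strand), was at 13.2, 5.15 and 7.74 against 51.9, 40.9 and 45.5 CPM, a log2 change of 2.36 with an SE of 0.33 (adjusted p = 0.000131). All depleted libraries lay well above all controls. With the Rn18s-rs5 covariate its log2 change was 2.61 (adjusted p = 0.0320) and with the neutrophil covariate 1.40 (adjusted p = 0.0896). Il1rn, the interleukin-1 receptor antagonist, was at 176, 233 and 357 against 71.0, 85.6 and 65.1 CPM, a log2 change of -1.79 with an SE of 0.42 (adjusted p = 0.00963). Il10, an anti-inflammatory cytokine, was scarce at 3.50, 2.77 and 4.89 against 0.361, 0.355 and 0.997 CPM (log2 -2.61 ± 0.77 SE, adjusted p = 0.0241), lost without control 3, depleted 1 or depleted 2 (adjusted p = 0.0715 to 0.0952), and Il18 fell by 1.80 on the log2 scale (SE 0.48, adjusted p = 0.0144), lost without control 3 (adjusted p = 0.104) or depleted 1 (adjusted p = 0.0691). The inflammatory cytokine genes Tnf (19.6, 18.6 and 36.6 against 19.5, 12.4 and 11.3 CPM, log2 -0.79 ± 0.40 SE, adjusted p = 0.191) and Il1b (236, 145 and 255 against 171, 168 and 180 CPM, log2 -0.29 ± 0.28 SE, adjusted p = 0.518) did not pass. Ebi3, a subunit shared by IL-27 and IL-35, was at 31.5, 36.1 and 29.3 against 22.4, 18.1 and 14.6 CPM (log2 -0.81 ± 0.21 SE, adjusted p = 0.0103), lost without depleted 3 (adjusted p = 0.0632). The falls of the list numbered 2 without control 3 and 2 without depleted 1, and 0 and 0 with the 2 covariates (medians -0.61 and -0.22).

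Gdf15, a stress-induced member of the TGF-beta family, was at 18.3, 31.7 and 61.9 against 6.49, 2.84 and 7.97 CPM and fell by 2.67 on the log2 scale (SE 0.46, adjusted p = 0.000694). Of 19 repair growth factors 4 fell (21.1%, beside 8.22% of all genes) and 2 rose (10.5%, close to the 8.95% of all genes). The falls numbered 2 without control 1, 1 without control 3, 2 without depleted 1 and 2 without depleted 3, and 1 and 0 in the covariate fits. Nrg1, an ErbB ligand, rose from 32.3, 33.7 and 11.0 to 54.8, 44.8 and 105 CPM (log2 1.40 ± 0.39 SE, adjusted p = 0.0210), lost without control 3 (adjusted p = 0.0785) or depleted 3 (adjusted p = 0.131). Hgf†, hepatocyte growth factor, rose from 2.69, 7.93 and 3.26 to 16.9, 13.5 and 16.9 CPM (log2 1.80 ± 0.55 SE, adjusted p = 0.0278), lost without control 1, control 3, depleted 1 or depleted 3 (adjusted p = 0.0779 to 0.107). Angptl4, a lipoprotein lipase inhibitor, fell by 1.51 on the log2 scale (SE 0.45, adjusted p = 0.0285), lost without control 1, control 3, depleted 1 or depleted 3 (adjusted p = 0.0504 to 0.162).

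The chemokine gene Ccl2, which recruits monocytes through CCR2, was at 541, 346 and 556 against 194, 157 and 217 CPM and fell by 1.35 on the log2 scale (SE 0.31, adjusted p = 0.00767). Ccl7, a ligand of the same receptor, fell by 1.39 on the log2 scale (SE 0.38, adjusted p = 0.0224), lost without control 3, depleted 1, depleted 2 or depleted 3 (adjusted p = 0.0503 to 0.0890). Ccl4, an inflammatory chemokine gene, went the other way, from 104, 67.0 and 94.4 to 161, 188 and 160.4 CPM (log2 0.94 ± 0.18 SE, adjusted p = 0.00181). The remaining 12 of 15 CC chemokines did not pass. The list thus had 1 rise (6.67%, beside 8.95% of all genes) and 2 falls (13.3%, beside 8.22%). Among CXC chemokines Cxcl12, which holds progenitors in the marrow, rose by 1.23 on the log2 scale (SE 0.34, adjusted p = 0.0175), lost without control 2, control 3 or depleted 3 (adjusted p = 0.0580 to 0.0902), and Cxcl16, which binds CXCR6, fell by 0.94 on the log2 scale (SE 0.28, adjusted p = 0.0278), lost without control 2, control 3, depleted 1 or depleted 3 (adjusted p = 0.0677 to 0.0915). Ppbp, a platelet chemokine, also fell, by 2.47 on the log2 scale (SE 0.75, adjusted p = 0.0316), lost without control 2, control 3, depleted 1 or depleted 3 (adjusted p = 0.0554 to 0.121).

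Of 19 complement genes 4 fell (21.1%, beside 8.22% of all genes) and 2 rose (10.5%, close to the 8.95% of all genes). The falls numbered 1 without control 3, 1 without depleted 1 and 2 without depleted 3, and the rises 1 without depleted 3. The Rn18s-rs5 and neutrophil covariates left 0 and 0 falls and 0 and 2 rises, with medians of -0.21 and 0.22. C3, the central component, was at 139, 123 and 89.2 against 250.2, 252 and 338 CPM, a log2 change of 1.26 with an SE of 0.23 (adjusted p = 0.00128). C5ar1, the receptor for the fragment C5a, was at 144, 145 and 215 against 88.0, 80.0 and 73.7 CPM and fell by 1.06 on the log2 scale (SE 0.18, adjusted p = 0.000574). C3ar1 fell by 1.47 on the log2 scale (SE 0.43, adjusted p = 0.0308), lost without control 3, depleted 1 or depleted 3 (adjusted p = 0.0728 to 0.128), and C1qb by 1.16 on the log2 scale (SE 0.29, adjusted p = 0.0106), lost without control 3 (adjusted p = 0.0617) or depleted 1 (adjusted p = 0.0557). Of 6 Fc receptor genes 3 fell (50%, beside 8.22% of all genes) and 1 rose (16.7%, beside 8.95%), and 1 fell without control 3 or without depleted 3. Fcgrt, the neonatal Fc receptor that recycles IgG, fell by 1.11 on the log2 scale (SE 0.22, adjusted p = 0.00204), and Fcgr4 rose by 1.15 on the log2 scale (SE 0.29, adjusted p = 0.010), lost without depleted 3 (adjusted p = 0.0793).

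Immediate early genes, which cells transcribe within minutes of a stimulus, cell isolation included, were lower. Of 28 tested 15 fell (53.6%, beside 8.22% of all genes) and 1 rose (3.57%, beside 8.95%), with a median log2 change of -0.68. Dusp1, a phosphatase that shuts off MAP kinases, was at 1725, 2356 and 2019 against 548, 692 and 531 CPM, a log2 change of -1.78 with an SE of 0.25 (adjusted p = 0.000159). Junb, an AP-1 subunit, was at 1105, 1628 and 1639 against 621, 768 and 626 CPM, a log2 change of -1.12 with an SE of 0.21 (adjusted p = 0.00112), and Fos at 1016, 1016 and 975 against 497, 574 and 491 CPM, a log2 change of -0.95 with an SE of 0.16 (adjusted p = 0.000601). Every depleted library held less of Dusp1, Junb and Fos than every control. Atf3, a stress-induced repressor, fell by 1.08 on the log2 scale (SE 0.24, adjusted p = 0.00439), and Nfkbia, the inhibitor of NF-kappaB, by 1.02 on the log2 scale (SE 0.17, adjusted p = 0.000530). Ier5, an early response gene, was the 1 that rose (log2 0.79 ± 0.24 SE, adjusted p = 0.0282), lost without any library but control 1 (adjusted p = 0.0609 to 0.107). The list had 8 falls without control 3 and 9 without depleted 1. With the covariates 2 (Rn18s-rs5) and 0 (neutrophil) of them were called lower, at medians of -0.63 and -0.29. Of 17 heat shock genes 2 rose and 2 fell (11.8% each way, near the 8.95% higher and 8.22% lower of all genes).

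Transcription factors of the macrophage lineage had 11 of 35 lower (31.4%, beside 8.22% of all genes) and 3 higher (8.57%, beside 8.95%). The falls numbered 7 without control 2, 5 without control 3, 6 without depleted 1 and 7 without depleted 3, and the rises 1 without control 3, 1 without depleted 1 and 1 without depleted 3. With the Rn18s-rs5 and neutrophil covariates 0 and 0 were called lower, at medians of -0.42 and 0.03. Besides Pparg, Nr1h3 and Cebpe, given above, Mitf, which drives lysosome and osteoclast genes, was at 24.7, 33.7 and 57.0 against 13.7, 17.4 and 11.0 CPM (log2 -1.45 ± 0.43 SE, adjusted p = 0.0274), lost without control 2, control 3, depleted 1 or depleted 3 (adjusted p = 0.0502 to 0.139). Mef2c fell by 0.87 on the log2 scale (SE 0.20, adjusted p = 0.00484) and Id3, a target of TGF-beta signalling, by 1.33 on the log2 scale (SE 0.28, adjusted p = 0.00324), calls kept whichever library was left out. Irf8, which steers progenitors to monocytes and away from neutrophils, was at 152, 158 and 152 against 123, 132 and 114 CPM and did not pass (log2 -0.32 ± 0.12 SE, adjusted p = 0.0773).

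Mitochondrially encoded transcripts were higher in depleted libraries. Of 14 tested 12 rose (85.7%, beside 8.95% of all genes) and 0 fell (median log2 change 1.20). Summed they held 12880, 10200 and 12970 against 23270, 24700 and 28970 CPM. mt-Nd3†, a subunit of complex I, was at 67.0, 28.1 and 50.5 against 184, 121 and 204 CPM, a log2 change of 1.79 with an SE of 0.31 (adjusted p = 0.000842). mt-Nd5†, another, was at 89.5, 50.3 and 70.8 against 177, 155 and 212 CPM, a log2 change of 1.36 with an SE of 0.23 (adjusted p = 0.000573). The ribosomal RNA mt-Rnr2 was at 5614, 3900 and 5994 against 11320, 14090 and 14550 CPM, a log2 change of 1.37 with an SE of 0.27 (adjusted p = 0.00204). In mt-Nd3, mt-Nd5 and mt-Rnr2 no depleted library overlapped the controls. The other mitochondrial ribosomal RNA, mt-Rnr1, rose by 1.40 on the log2 scale (SE 0.41, adjusted p = 0.0290), lost without control 1, control 2, depleted 1 or depleted 3 (adjusted p = 0.0803 to 0.110). mt-Cytb† of complex III did not move with the rest, at 847, 985 and 740.1 against 954, 935 and 1069 CPM (log2 0.20 ± 0.22 SE, adjusted p = 0.567). The Rn18s-rs5 fit called 0 of the list and the neutrophil fit 2, with medians of 0.92 and 1.04.

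Of 38 nuclear genes of oxidative phosphorylation 0 were called higher and 3 lower (7.89%, beside 8.22% of all genes), and the median was -0.05. Uqcrc1, a core protein of complex III, was at 288, 337 and 296 against 159, 207 and 170.4 CPM and fell by 0.78 on the log2 scale (SE 0.17, adjusted p = 0.00451). Rn18s-rs5 rose by 2.12 on the log2 scale (SE 0.57, adjusted p = 0.0227), a call lost without any library but depleted 2 (adjusted p = 0.0534 to 0.0766), and it was not in the annotation used for positions and shared words. The mitochondrial sum was highest in depleted 3 and Rn18s-rs5 in depleted 1. The part of RNA quality in these changes was not tested.

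The same depletion was compared at day 7, with 5 control and 5 depleted libraries of its own. At that day 2994 genes were called (23.6%), 1393 of them higher (11%) and 1601 lower (12.6%). 1154 genes were called in the same direction on both days, 52.9% of the day 10 calls and 38.5% of the day 7 calls, and 7 in opposite directions. Of the genes called at day 10, 92.9% had the same sign at day 7. The test of the difference between the effects of the 2 days called 0 genes with edgeR, where 1591 (12.5%) had an unadjusted p under 0.05 and the lowest adjusted p was 0.0692. With edgeR it called 166 without the filter on low counts and 79 with the neutrophil covariate. DESeq2 called 201 and limma-voom 0. Leaving out a library gave 1 call without day 7 control 2, 27 without day 7 depleted 3, 1 without day 10 control 3 and 15 without day 10 depleted 2.

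**Figure D4:**
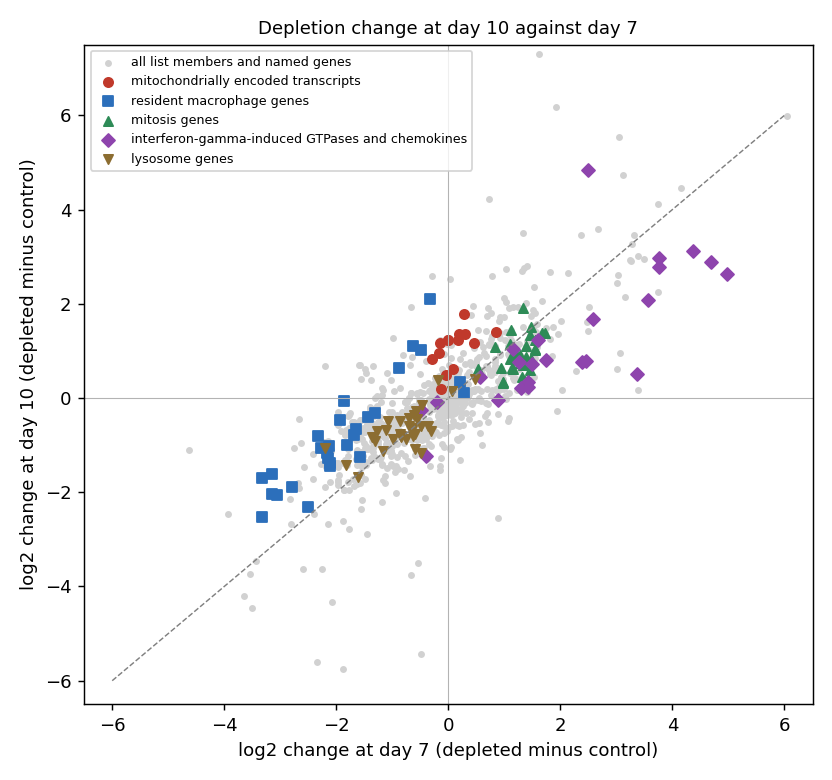
Log2 change at day 10 (y axis) against day 7 (x axis), Treg-depleted minus control, for the members of all lists and the named genes (grey; dashed line, equal change), with 5 lists in colour. Most mitochondrial transcripts (red circles) lie near 0 at day 7 and above it at day 10, while most resident macrophage genes (blue squares) lie below 0 on both days.

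Resident macrophage genes had 21 falls of 28 at day 7 with a median log2 change of -2.03, beside -1.0 at day 10. Ms4a7 changed by -3.15 at day 7 and -2.04 at day 10, a difference of 1.11 with an SE of 0.38 (adjusted p = 0.229). Adgre1, which did not pass at day 10, had a log2 change of -1.31 at day 7 (adjusted p = 9.79e-06; difference 0.99, SE 0.27, adjusted p = 0.142). Interferon-gamma-induced genes had 19 of 24 higher at day 7 and 6 at day 10, with medians of 1.67 and 0.78. All 32 mitosis genes were called higher at day 7, with a median of 1.30, and 20 at day 10. Beside these counts, 11% of all genes were called higher and 12.6% lower at day 7, and 8.95% and 8.22% at day 10. The unadjusted p of edgeR's test of the difference between the days was under 0.05 in 16 of 28 resident macrophage, 7 of 24 interferon-gamma-induced and 4 of 32 mitosis genes. Of all genes 12.5% were under it, a share that the mitosis genes did not exceed. The difference was positive in all 16 and negative in the 7 and the 4. None of these genes passed after adjustment, so that test shows no difference between the days for them.

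Mitochondrial transcripts had 0 calls at day 7, with a median log2 change of 0.04, and 12 at day 10. mt-Co1†, a subunit of complex IV, changed by -0.01 at day 7 and 1.23 at day 10, a difference of 1.24 (SE 0.26, adjusted p = 0.0692). mt-Nd2† changed by -0.30 and 0.83, a difference of 1.13 (SE 0.23, adjusted p = 0.0692). The unadjusted p was under 0.05 in 11 of the 14 transcripts, and none passed after adjustment. Of nuclear genes, those with the lowest p for the difference were named after their values were seen. Rbm3† rose on both days, by 0.70 at day 7 and 1.92 at day 10 (difference 1.22, SE 0.21, adjusted p = 0.0692). Stat3, which carries the IL-6 and IL-10 signals, was at 187, 266 and 254 against 112, 149 and 118 CPM at day 10 (log2 -0.90 ± 0.17 SE, adjusted p = 0.00114) and did not pass at day 7 (0.18, adjusted p = 0.327). Its difference between the days was -1.08 (SE 0.21, adjusted p = 0.0692).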

How the data were processed

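Gene expression was measured by 3′ RNA sequencing with molecular identifiers in 56 libraries, 16 of them from bone, per the labels' protocols. The authors deposited estimated counts per gene, of which 18.9% of the non-zero bone values lay over 0.01 from a whole number. STAR, featureCounts, limma and the builds GRCm38 and GRCm39 are named, without roles or versions, in the submitters' processing notes. The use of the identifiers, the annotation, the strand setting and the gate of the sort were not given in the sources used here.

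Estimated counts were rounded and fitted with edgeR 4.0.16 (R 4.3.3): TMM scaling, a filter on low counts by group, robust quasi-likelihood fits over the 4 bone groups (day 7 with 5 and 5 libraries, day 10 with 3 and 3), Benjamini-Hochberg adjustment over all genes and a threshold of 0.05. Of 57010 genes 12709 were tested. Every adjusted p is from this test unless DESeq2 1.42.0 or limma 3.58.1 is named. Summed levels were compared by exact permutation (scipy 1.17.1, Python 3.11.15). On data simulated for the day 10 comparison (12107 genes), 23 of 100 genes changed 2-fold and 76 of 100 changed 4-fold were recovered, and 5 of 104 calls were not seeded. No other gene was changed in the simulation, whereas 17.2% of genes were called in the data. The adjustment is stricter where few genes change, so recovery in the data may differ.

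Columns were matched to samples by their descriptions. Day 10 column names carry a pair of numbers whose meaning the labels do not give, and replicate numbers come from the titles. Replicates differed by more than counting noise, with a chi-square of 7.02 to 9.57 per degree of freedom between day 10 libraries of a group. Deviations of same-numbered day 10 libraries of the 2 groups had correlations of 0.0743, 0.0442 and 0.0556, and differently numbered ones -0.0658 to 0.0141. With 3 libraries a group, values this small cannot decide whether the numbers mark pairs.

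The comparison and the 51 gene lists (952 genes, some in several lists) were chosen with earlier results of these data known. Named were the 12 largest called changes in each direction with at least 5 CPM in a group, no overlap and a symbol that is not a clone or predicted name, then list members, the 4 largest first in lists with over 5 calls, Foxp3 and Rn18s-rs5. Some genes that the rule selects are not reported here. Genes sharing at least 0.05 of their 31-base words with another gene of GENCODE M21 (GRCm38), a rule added after the data were seen, carry a dagger. They were 28% of the tested and 29.6% of the called genes. Promoters are the RefSeq (GRCm38.p6) bases before each start, and the 2 interferon motifs were added after the data were seen. Positions are from GENCODE M21. Counting intervals and floors cover counting error only. Alternatives were other scaling, filter, tools, sample sets, covariates, a replicate block and each library left out.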

Additional observations from a re-analysis of the deposited data

Results flagged for a closer look

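Of 106 groups of 5 day 7 libraries examined (53 summed levels in control and depleted cells), 6 held a library far from the others. Chance alone gives about 1 in 20, so this number is close to what chance gives. Some lists share genes, so the sums are not independent. The day 10 groups of 3 are too small for this test. Day 7 control 2 was the lowest of its group in 3 sums: resident macrophage genes at 10600 CPM against a group median of 13700, MHC class II genes at 7792 against 12410, and cholesterol efflux and LXR genes at 5711 against 8678. Day 7 depleted 3 was the highest of its group in the other 3: type 2 cytokine, receptor and signalling genes at 773.8 CPM against a median of 547.2, complement genes at 2744 against 1600, and lysosome genes at 18530 against 13210. These libraries enter the day 10 comparison through the shared estimate of the spread, and the difference between the days directly, where 1 gene was called without day 7 control 2 and 27 without day 7 depleted 3.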

How the results depend on the processing

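RLE scaling, no filter on low counts, DESeq2, limma-voom, the 6 day 10 libraries alone and leaving Rn18s-rs5 and mitochondrial transcripts out of the table kept the day 10 totals within 1.5 times 2182, 1137 and 1045, and of 301 named genes 300, 277, 301, 259, 288 and 284 kept their call. Without a filter 166 genes were called for the difference between the days and 12 of the osteoclast list. DESeq2 called 201 for that difference, limma-voom 7 type I interferon genes, and the 6 libraries alone 13 osteoclast genes. Leaving the mitochondrial transcripts out left 0 of them by construction. Whether the replicate numbers pair the libraries could not be decided, and each day 10 library correlated best with its own number, at low values. With the replicate block 2119 genes were called (1068 higher, 1051 lower), 0 for the difference between the days, and 13 named genes lost their call. The Rn18s-rs5 covariate gave 78 calls (26 higher, 52 lower): 3 resident, 3 lipid-associated, 0 classical monocyte, 1 neutrophil, 0 S phase, 1 mitosis, 0 osteoclast, 0 type I interferon, 2 lysosome, 3 iron, 0 mitochondrial, 2 immediate early and 1 basophil gene. The neutrophil covariate gave 189 (148 higher, 41 lower), 79 for the difference between the days, and in the same order 1, 0, 0, 1, 0, 1, 0, 0, 3, 0, 2, 0 and 0. Under it the log2 change reversed to 0.062 in Gas6, -0.369 in Pglyrp1, -0.522 in Camp, -0.122 in S100a8, -0.005 in Wfdc21, -0.041 in Itgb2l, -0.051 in Tacc3, 0.066 in Ifit1, 0.028 in Ifit3, 0.058 in Oasl1 and 0.024 in H2-Aa, and Rn18s-rs5 stood at -0.081 under its own covariate. Camp, S100a8, Wfdc21, Itgb2l and the neutrophil list's count belong to the list that forms the neutrophil covariate, so their values there follow by construction. Both covariates differ between the day 10 groups without overlap, and the cause was not tested. At least a 2-fold change was met by 1126 calls (639 higher, 487 lower), among them 9 lipid-associated, 3 classical monocyte, 6 S phase, 12 mitosis, 5 lysosome and 6 immediate early genes. Without genes that share sequence, an alternative added after the data were seen, 690 were higher, fewer genes being tested. Leaving out 1 library at a time gave 1181 to 2266 calls, 653 to 1173 higher and 528 to 1153 lower, and 0 to 27 for the difference between the days. The lists ranged from 6 to 15 resident, 12 to 18 lipid-associated, 7 to 9 classical monocyte, 8 to 17 neutrophil, 9 to 12 S phase, 9 to 21 mitosis, 4 to 9 osteoclast, 3 to 13 type I interferon, 14 to 19 lysosome, 6 to 9 iron, 9 to 12 mitochondrial, 8 to 17 immediate early and 4 to 10 basophil genes. Of the depleted over control ratios of summed levels, that of T and NK markers was 1.17 and lay between 0.999 (without depleted 1) and 1.34, and that of eosinophil markers was 1.06, between 0.903 (without control 3) and 1.30, and 0.986 on plain totals. With 3 libraries a group, changes of 2-fold were often missed in the simulated data, where far fewer genes changed than were called here. The share missed in the data themselves is not known.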

Other observations

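Genes of TGF-beta signalling, through which cells are held in or driven to tissue-resident states, had 0 rises and 5 falls among 24 tested (20.8% lower, beside 8.22% of all genes), with a median log2 change of -0.46. The falls numbered 2 without control 3, 2 without depleted 1 and 3 without depleted 3, and 1 and 1 with the Rn18s-rs5 and neutrophil covariates (medians -0.41 and -0.15). Tgif1, a repressor of SMAD-driven transcription, was at 121, 194 and 229 CPM in the controls and 41.8, 55.4 and 67.4 CPM in the depleted libraries and fell by 1.72 on the log2 scale (SE 0.27, adjusted p = 0.000451). Smad3, which carries the signal to the nucleus, was scarce at 4.03, 4.76 and 6.92 against 0.721, 2.13 and 0.664 CPM (log2 -2.12 ± 0.56 SE, adjusted p = 0.0134), and its call was lost without control 3, depleted 1 or depleted 3 (adjusted p = 0.0581 to 0.0663). The receptor genes Tgfbr1 (log2 -0.59 ± 0.21 SE, adjusted p = 0.0601) and Tgfbr2 (log2 -0.60 ± 0.22 SE, adjusted p = 0.0699) did not pass, and the ligand gene Tgfb1 was at 16.7, 19.8 and 16.7 against 13.7, 17.1 and 15.3 CPM with overlapping groups.

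Of 17 checkpoint and costimulatory genes 4 fell (23.5%, beside 8.22% of all genes) and 0 rose, and neither covariate fit called any lower. Tnfsf9, the ligand of the T cell costimulator 4-1BB, was at 30.9, 18.2 and 34.6 against 7.57, 4.62 and 10.3 CPM and fell by 1.89 on the log2 scale (SE 0.39, adjusted p = 0.00258). Cd276, the B7 family member B7-H3, was at 26.1, 12.7 and 23.6 against 6.13, 6.04 and 5.65 CPM and fell by 1.81 on the log2 scale (SE 0.46, adjusted p = 0.0107), and Sirpa, the receptor for the signal that spares healthy cells from engulfment, fell by 0.67 on the log2 scale (SE 0.16, adjusted p = 0.00762). No depleted library reached a control in these 3 genes. Cd274, which encodes PD-L1, was at 10.2, 9.51 and 13.8 against 11.5, 6.75 and 12.6 CPM and did not pass (log2 -0.11 ± 0.46 SE, adjusted p = 0.898). Of 27 glycolysis and hypoxia genes 4 fell (14.8%, beside 8.22% of all genes) and 1 rose (3.7%, beside 8.95%). The falls numbered 2 without control 2, control 3, depleted 1 or depleted 3. The lactate exporter gene Slc16a3 fell by 0.86 on the log2 scale (SE 0.19, adjusted p = 0.00433).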
